A study of Homo sapiens with 18 samples.

Results

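The intermediate filament genes described here are 10 genes chosen by name, out of 20329 gene identifiers counted in each sample: the keratin genes KRT7, KRT8, KRT18, KRT19 and KRT10, and VIM, NES, INA, NEFL and NEFM, which encode vimentin, nestin, alpha-internexin and the light and medium neurofilament proteins. They were selected with earlier results of these data known, so their changes are given as a description. Of the 10, 9 had a row in the count tables. NEFL was not matched to a row and was not analysed here. KRT7 and KRT19 had too few reads to be tested, which left 7 genes tested in at least 1 comparison and 6 tested in every comparison.

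Intermediate filaments are rope-like polymers that give cells mechanical strength. Keratins are obligate heteropolymers of a type I and a type II chain, and KRT8 (type II) with KRT18 (type I) form the filaments of simple epithelia. KRT8 and KRT18 lie side by side, whereas the other type I keratins lie together on chromosome 17. Vimentin is the filament protein of mesenchymal and many cultured cells. Nestin marks neural progenitors and some other dividing cells, and alpha-internexin and the neurofilament proteins belong to neurons.

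RNA was measured in HAP1 cells, a near-haploid adherent human line derived from a chronic myeloid leukemia line, in 18 samples of 6 groups with 3 samples each. Control A and control B were wild-type HAP1 cells. *ΔWAPL* 3.3 and *ΔWAPL* 1.14 were 2 clones (labelled WaplKO_3.3 and WaplKO_1.14) in which a blasticidin cassette had been inserted into WAPL, the cohesin release factor. *ΔSCC4* cells (SCC4KO) carried a puromycin cassette in SCC4, whose gene symbol is MAU2 and whose product is part of the cohesin loader, and *ΔWAPL*/*ΔSCC4* cells (WaplKO_3.3/SCC4KO) had SCC4 knocked out in the *ΔWAPL* background. All 3 samples of a knockout group carry the same clone or genotype name, so an effect of the disrupted gene cannot be told apart from a difference of that clone. By the letter in the control titles and the order number and lane of the files, control A formed a set with *ΔWAPL* 3.3, *ΔSCC4* and *ΔWAPL*/*ΔSCC4* (set A), and control B a set with *ΔWAPL* 1.14 (set B). The set A comparisons with control share the control A samples. The comparison asked how the transcriptome differed between cells that lack the release factor, a loader subunit, or both. Nothing in the labels says that the 3 samples of a group came from separate cultures, so p-values measure the spread between these samples, which may be technical.

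Per sample 10007646 to 20711127 reads were counted on genes (median 16177868). Levels are CPM, the counts scaled to a common library size after TMM scaling over all samples, and 3 counts, the limit that a count of 0 allows, correspond to 0.150 to 0.305 CPM. This limit covers counting error only. WAPL was at 99.2 ± 21.5 CPM in control A and 121 ± 14.6 CPM in control B (mean ± SD, n = 3 in each group), and at 43.7 ± 5.65 CPM in *ΔWAPL* 3.3, 41.3 ± 2.89 CPM in *ΔWAPL* 1.14 and 45.5 ± 3.95 CPM in *ΔWAPL*/*ΔSCC4*. MAU2 was at 65.6 ± 6.25 CPM in control A, 0.702 ± 0.243 CPM in *ΔSCC4* and 0.935 ± 0.10 CPM in *ΔWAPL*/*ΔSCC4*. Of 12 hematopoietic marker genes none passed the filter on low counts, and no single one had more than 7 reads in any sample. Their summed level was 0.159 to 0.815 CPM per sample, so these markers were at or near the counting limit.

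In GRCh37, KRT8 spans chr12:53290971-53343738 on the minus strand and KRT18 spans chr12:53342655-53346690 on the plus strand. The canonical start of KRT8 is 44042 bases from that of KRT18. The annotated gene records overlap by 1084 bases on opposite strands, because 8 of the 18 annotated KRT8 transcripts start inside KRT18, between 658 and 836 bases from its canonical start. The libraries were strand-specific, but whether the counting used the strand is not given in the sources used here, and without it reads in this overlap could not be assigned to either gene. KRT8 has 51 annotated processed pseudogenes and KRT18 has 68, none of them with a row in the count tables. Alignments to more than 1 place in the genome, 14.3% to 16.1% of the total in each sample, were not counted, so the levels of both genes are uncertain where they share sequence with these copies.

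The promoter-proximal sequence of VIM is shown because VIM was the filament gene with the highest level and was called in 5 of the 9 comparisons. The run is the 150 bases before the canonical transcript start, 5′ to 3′ on the strand of the gene, read from GRCh37. Capitals mark matches, on either strand, to the letters TATAAA of the TATA box, the letters GGGCGG of the GC box, the box named for its letters CCAAT, or the AP-1 site spelled TGANTCA.
VIM, chr10:17270090-17270239 (plus strand): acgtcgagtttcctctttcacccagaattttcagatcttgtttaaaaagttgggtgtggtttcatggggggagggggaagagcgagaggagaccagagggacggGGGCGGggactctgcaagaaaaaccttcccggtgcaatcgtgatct

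The VIM window held 1 GC box, 46 bases before the start, and no match to the other motifs. Over the same window of 18805 protein-coding genes, TATAAA was found in 6.34%, GGGCGG in 54%, CCAAT in 26.4% and TGANTCA in 2.78%. These are matches of letters only.

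Per kilobase of exon, VIM was the most abundant of the 9 genes with a row in the 6 controls, at 104 CPM per kb, followed by NES at 40.8, KRT18 at 18.5, INA at 6.93, KRT10 at 5.53 and KRT8 at 1.35 CPM per kb. The length is that of all annotated exons of a gene together, 6.88 kb for KRT8, 3.07 kb for KRT18 and 2.16 kb for KRT10. The gaps between genes depend on it. In CPM, KRT8 was at 8.15 in control A and 10.4 in control B. KRT18 was at 61.9 and 51.7 CPM, and KRT10 at 13.3 and 10.6 CPM. KRT8 was thus below its partner KRT18 in control cells by either measure. NEFM was at 0.0288 CPM per kb, with 0 to 29 reads per sample. KRT7 had 0 to 4 reads and KRT19 had 0 to 1 read per sample, with no read in 14 and 15 of 18 samples. The simple epithelial keratins were thus unequal, with KRT18 well detected, KRT8 low and the other type II and type I chains of simple epithelia, KRT7 and KRT19, at or near the limit.

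**Figure D1:**
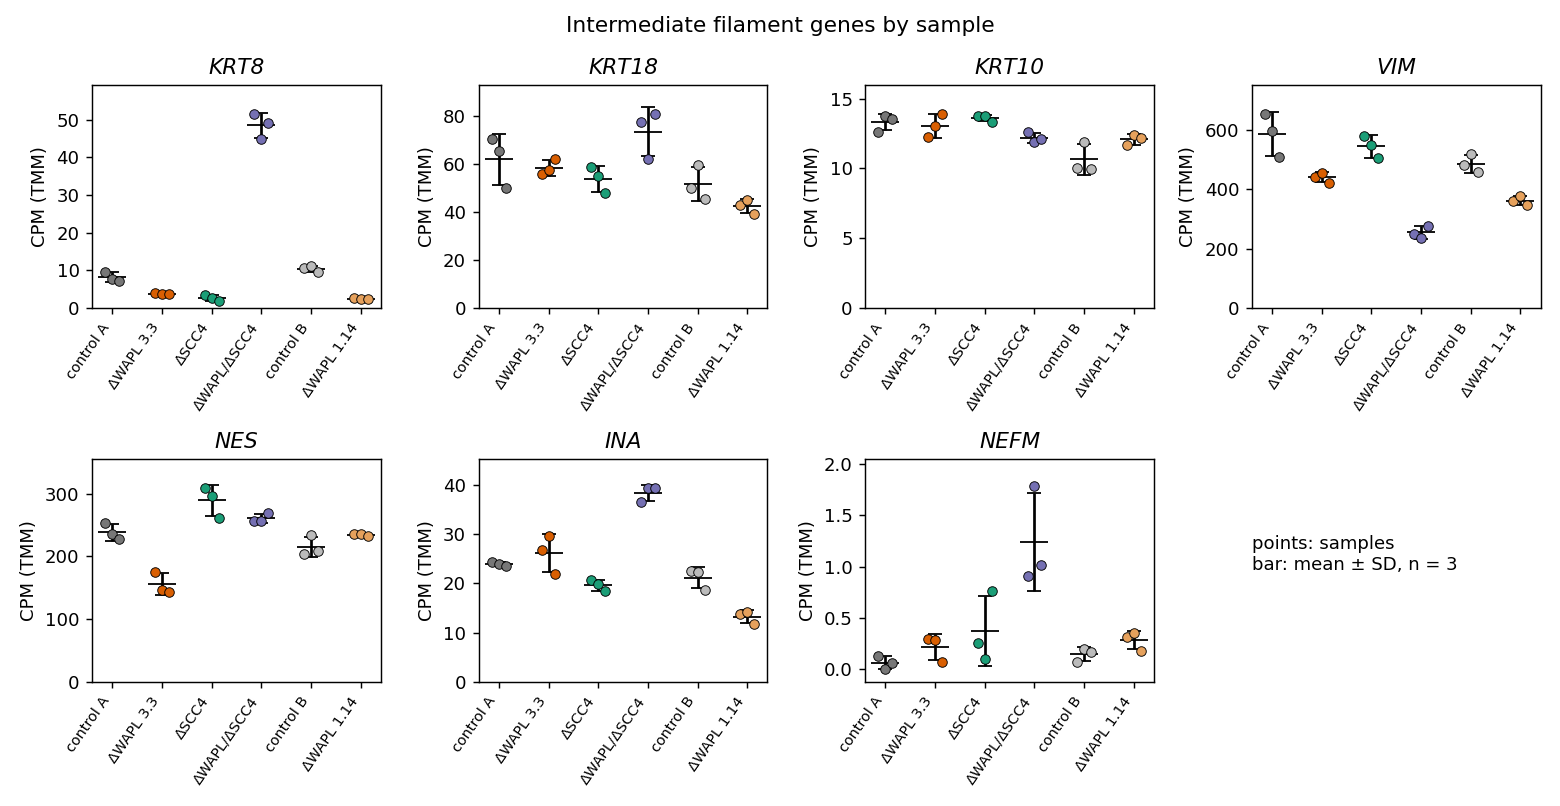
Level of 7 intermediate filament genes in CPM (vertical axes, 0 included) for each of the 18 samples, by group (horizontal axes). Points are samples and bars the mean ± SD of 3 samples. KRT8 was between 44.8 and 51.6 CPM in *ΔWAPL*/*ΔSCC4* and at most 11.1 CPM in every other sample, whereas VIM was lowest in *ΔWAPL*/*ΔSCC4*.

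Among the 6 filament genes tested in every comparison, KRT8 had the largest fold change in each knockout group. It was lower in both *ΔWAPL* clones and in *ΔSCC4* cells than in their controls, and higher in *ΔWAPL*/*ΔSCC4* cells, in which both genes were disrupted. In control A the 3 samples had 148, 124 and 120 KRT8 reads, or 9.64, 7.65 and 7.15 CPM. In *ΔWAPL* 3.3 they had 77, 52 and 55 reads, or 3.84, 3.68 and 3.66 CPM. All 3 lay below all controls of the set. In *ΔSCC4* there were 54, 27 and 26 reads, or 3.51, 2.75 and 1.80 CPM, again below all controls. In *ΔWAPL*/*ΔSCC4* there were 906, 729 and 869 reads, or 51.6, 44.8 and 49.1 CPM, far above every other sample. Control B had 155, 165 and 168 reads, or 10.6, 11.1 and 9.45 CPM, and *ΔWAPL* 1.14 had 47, 39 and 37 reads, or 2.49, 2.32 and 2.23 CPM. These samples did not overlap either. RNA of whole cultures cannot tell fewer cells with a transcript apart from less transcript per cell.

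Ordered by mean level, KRT8 was at 2.35 ± 0.132 CPM in *ΔWAPL* 1.14, 2.69 ± 0.859 in *ΔSCC4*, 3.72 ± 0.0991 in *ΔWAPL* 3.3, 8.15 ± 1.32 in control A, 10.4 ± 0.840 in control B and 48.5 ± 3.42 in *ΔWAPL*/*ΔSCC4* (mean ± SD, n = 3 each). *ΔWAPL* 1.14 and *ΔSCC4* overlapped, as did the controls. *ΔSCC4* and *ΔWAPL* 3.3 were close together, with 3.51 CPM in the highest *ΔSCC4* sample and 3.66 CPM in the lowest *ΔWAPL* 3.3 sample.

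Tests were made by edgeR's quasi-likelihood test over all genes, with Benjamini-Hochberg adjusted p-values and a threshold of 0.05, and fold changes are on the log2 scale with their standard errors (SE). Over both *ΔWAPL* clones against their controls, 2 of the 6 tested filament genes passed the threshold and both were lower, where 17.7% of all 12786 tested genes passed in either direction. The 2 were KRT8, with a log2 fold change of -1.62 (SE 0.17, adjusted p = 7.01e-06, edgeR), and VIM, with -0.42 (SE 0.07, adjusted p = 0.000335, edgeR). KRT8 was thus 3.07-fold lower and VIM 1.34-fold lower. With clone 3.3 alone against all 6 controls, VIM was at -0.29 and no longer passed (adjusted p = 0.0771, edgeR). The median log2 fold change of the 6 genes was -0.26, where that of all tested genes was 0.0048. KRT8 was 192nd from the lowest of the 12786 genes by log2 fold change.

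Each clone was also compared with its own control. In *ΔWAPL* 3.3, 2 of 6 passed (8.07% of all genes tested did), namely KRT8 with -1.15 (SE 0.19, adjusted p = 0.000814, edgeR) and NES with -0.64 (SE 0.14, adjusted p = 0.00709, edgeR). Without replicate 2 of *ΔWAPL* 3.3 the log2 fold change of NES was -0.61 with an adjusted p by edgeR of 0.0708, which left KRT8 as the 1 gene called, and the number called over all genes was 686 against 1008. In *ΔWAPL* 1.14, 3 of 6 passed, where 20.1% of all genes did: KRT8 with -2.14 (SE 0.11, adjusted p = 3.66e-05, edgeR), VIM with -0.43 (SE 0.06, adjusted p = 0.00382, edgeR) and INA with -0.68 (SE 0.11, adjusted p = 0.00579, edgeR). VIM had nearly the same log2 fold change in clone 3.3, -0.43 (SE 0.14), with an adjusted p by edgeR of 0.0766, and it passed there without replicate 3 of control A, at -0.52 and an adjusted p of 0.0137.

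The difference between the effects in the clones, that in 3.3 minus that in 1.14, passed the threshold for 3 of 6 filament genes, where 2.65% of all genes passed. It was 1.02 (SE 0.20, adjusted p = 0.0138, edgeR) for KRT8, which fell further in 1.14. For NES it was -0.74 (SE 0.14, adjusted p = 0.00807, edgeR), with a fall in 3.3 and a log2 fold change of 0.12 (SE 0.06, adjusted p = 0.233, edgeR) in 1.14. For INA it was 0.80 (SE 0.18, adjusted p = 0.0301, edgeR), with a fall in 1.14 and a log2 fold change of 0.11 (SE 0.16, adjusted p = 0.823, edgeR) in 3.3. The INA difference did not pass when any 1 of 9 of the 12 samples was left out, with adjusted p-values in those fits between 0.0516 and 0.102. Clones and sets of samples coincided, so a difference between clones cannot be told apart from one between sets. Between the 2 groups of controls, 0 of 6 filament genes passed by edgeR (1 of 6 at an unadjusted p under 0.05, and 0 by DESeq2), where 0.64% of all genes did.

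In *ΔSCC4* cells 1 of 6 passed, where 9.49% of all genes did. This was KRT8, with a log2 fold change of -1.61 (SE 0.25, adjusted p = 0.00189, edgeR), or 3.04-fold lower and 161st from the lowest of 12503 genes. Same-numbered samples of *ΔSCC4* and control A deviated together, and in a fit blocked on replicate number 4 of 6 passed: KRT8, KRT18 with -0.21 (adjusted p = 0.0270, edgeR), NES with 0.26 (adjusted p = 0.00110, edgeR) and INA with -0.30 (adjusted p = 0.00976, edgeR). Under the block the number of all genes that passed also rose, from 1186 to 5754. VIM was not called in either fit, and without the block its log2 fold change was -0.12 (SE 0.13).

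In *ΔWAPL*/*ΔSCC4* cells against control A, 4 of 7 filament genes passed, 3 higher and 1 lower, where 7.95% of all genes passed. KRT8 rose by 2.57 (SE 0.15, adjusted p = 3.31e-06, edgeR), or 5.94-fold, and INA rose by 0.68 (SE 0.11, adjusted p = 0.00365, edgeR). VIM fell by 1.21 on the log2 scale (SE 0.13, adjusted p = 0.00016, edgeR), or 2.31-fold. NEFM, the medium neurofilament gene, is among the 3 counted as higher. It passed the filter only through *ΔWAPL*/*ΔSCC4*, so its call is no evidence beyond its reads. Against *ΔWAPL* 3.3, 5 of 7 passed, where 10.6% of all genes did. NEFM is again among the genes counted, with the same limit. KRT8 was 13.0-fold higher (log2 fold change 3.70, SE 0.14, adjusted p = 1.2e-10, edgeR). NES was higher by 0.75 (SE 0.11, adjusted p = 0.000232, edgeR) and INA by 0.56 (SE 0.13, adjusted p = 0.0111, edgeR), and VIM was lower, at -0.79 (SE 0.10, adjusted p = 7.1e-05, edgeR). These comparisons share the *ΔWAPL*/*ΔSCC4* samples.

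**Figure D2:**
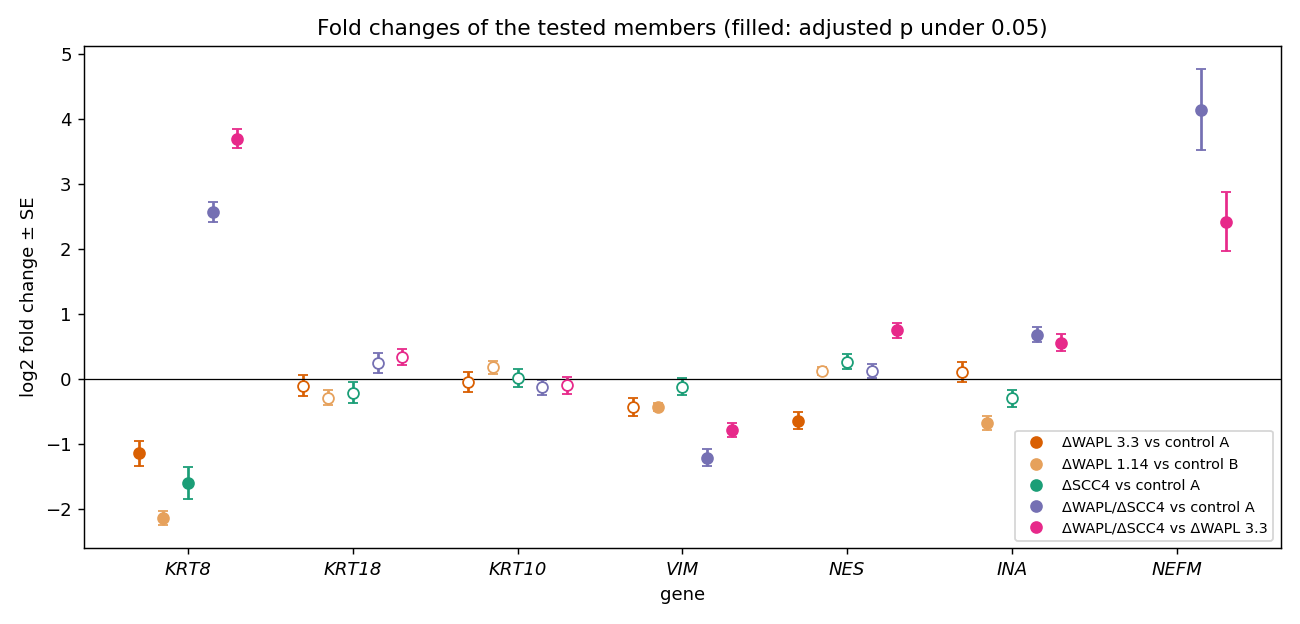
Log2 fold change ± SE (vertical axis) of 7 filament genes (horizontal axis) in 5 comparisons, with filled points where the adjusted p by edgeR was under 0.05. KRT8 was below 0 in both *ΔWAPL* clones and in *ΔSCC4* and above 0 in *ΔWAPL*/*ΔSCC4*, whereas all points of KRT18 and KRT10 are open.

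The interaction, by how much the effect of losing WAPL differed between cells without and with SCC4, was tested within set A. It passed for 4 of 7 filament genes, where 11.3% of all genes passed. For KRT8 it was 5.31 (SE 0.27, adjusted p = 8.64e-09, edgeR), since KRT8 fell on loss of WAPL where SCC4 was present and rose where it was absent. This was 36th from the top among 12817 tested genes. For INA it was 0.87 (SE 0.17, adjusted p = 0.00263, edgeR) and for VIM -0.66 (SE 0.15, adjusted p = 0.0102, edgeR). For NES it was 0.49 (SE 0.15, adjusted p = 0.0421, edgeR). The NES interaction lost its call with DESeq2 size factors (adjusted p = 0.0516), with other filters on low counts (0.0894 without a filter and 0.0524 with at least 10 counts in every sample) and without any 1 of 9 of the 12 samples (0.0701 to 0.128).

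KRT18, the neighbour and partner of KRT8, was called in none of these comparisons without the block. With the block it was called in *ΔSCC4*, as given above, and in *ΔWAPL* 1.14, at -0.28 (adjusted p = 0.0365, edgeR). The deviations of same-numbered samples of *ΔWAPL* 1.14 and control B correlated at 0.0495, 0.319 and 0.196. KRT18 had 1081, 1063 and 837 reads in control A (70.4, 65.5 and 49.9 CPM) and 1120, 812 and 933 reads in *ΔWAPL* 3.3 (55.8, 57.4 and 62.0 CPM). It had 904, 539 and 693 reads in *ΔSCC4* (58.8, 54.9 and 47.9 CPM) and 1366, 1011 and 1431 in *ΔWAPL*/*ΔSCC4* (77.7, 62.1 and 80.9 CPM). In set A each knockout group overlapped control A. In set B there were 733, 886 and 807 reads in control B (50.1, 59.6 and 45.4 CPM) and 812, 761 and 651 in *ΔWAPL* 1.14 (43.0, 45.2 and 39.3 CPM), with all 3 *ΔWAPL* 1.14 samples below the lowest control. The log2 fold change of KRT18 was -0.18 (SE 0.10, adjusted p = 0.212, edgeR) over both *ΔWAPL* clones and 0.24 (SE 0.16, adjusted p = 0.524, edgeR) in *ΔWAPL*/*ΔSCC4*. Leaving out 1 sample brought KRT18 past the threshold in 4 comparisons: over both clones without replicate 3 of control A (-0.25, adjusted p = 0.0360, edgeR), in *ΔWAPL* 1.14 without replicate 3 of control B (-0.38, adjusted p = 0.0232, edgeR), in *ΔWAPL*/*ΔSCC4* against *ΔWAPL* 3.3 without replicate 2 of *ΔWAPL*/*ΔSCC4* (0.45, adjusted p = 0.0280, edgeR), and in the interaction without replicate 3 of control A (0.70, adjusted p = 0.0280, edgeR). Each of these values was smaller in size than that of KRT8 in the same comparison.

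The share of KRT8 relative to KRT18, which does not depend on library scaling, separated each knockout group from the controls of its set, while *ΔSCC4* overlapped each of the *ΔWAPL* clones. For every 100 KRT18 reads there were 11.7 to 14.3 KRT8 reads in control A, 5.89 to 6.88 in *ΔWAPL* 3.3 and 3.75 to 5.97 in *ΔSCC4*. In *ΔWAPL*/*ΔSCC4* there were 60.7 to 72.1. In set B there were 18.6 to 21.1 in control B and 5.12 to 5.79 in *ΔWAPL* 1.14. No sample of a knockout group overlapped the controls of its set, and the ratio was 2.07-fold lower in *ΔWAPL* 3.3, 3.65-fold lower in *ΔWAPL* 1.14 and 2.73-fold lower in *ΔSCC4*, and 5.02-fold higher in *ΔWAPL*/*ΔSCC4*. The controls of the sets also did not overlap, with a ratio 1.53-fold higher in control B.

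**Figure D3:**
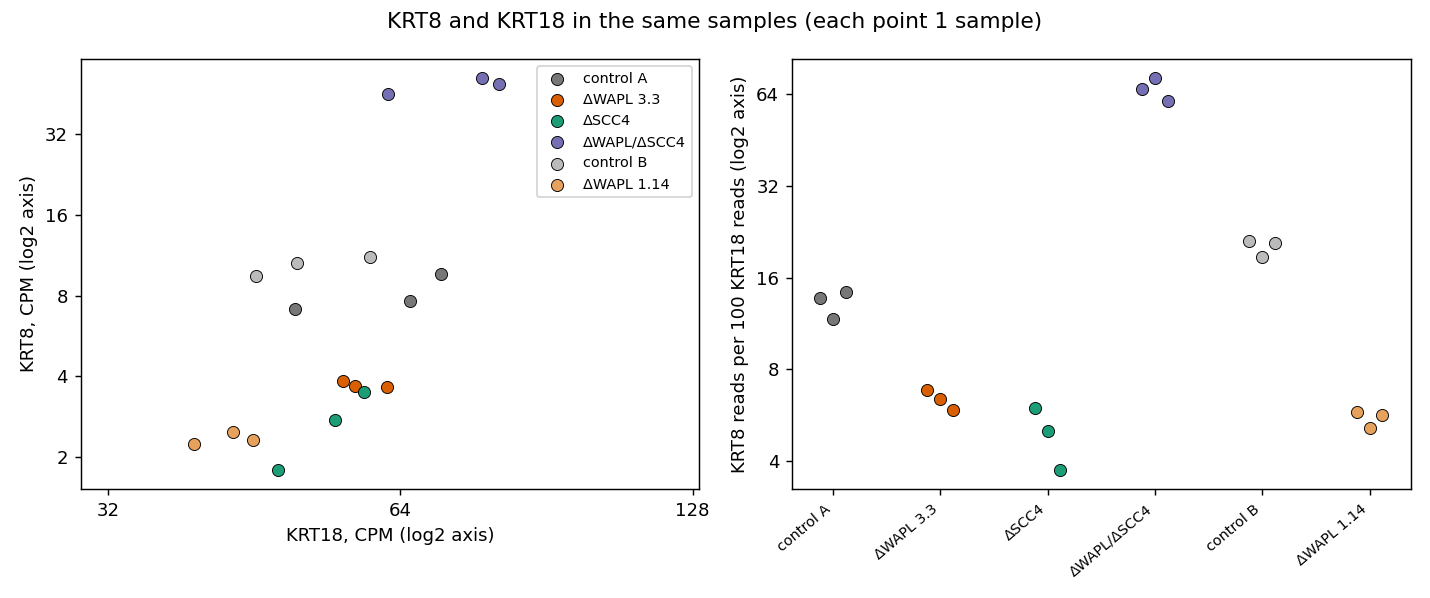
Left, KRT8 against KRT18 level in CPM (log2 axes), with each point 1 sample colored by group. Right, KRT8 reads for every 100 KRT18 reads (log2 axis) by group, from 3.75 in a *ΔSCC4* sample to 72.1 in a *ΔWAPL*/*ΔSCC4* sample.

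As a measure of likeness, Pearson's r of log2 CPM between KRT8 and KRT18 was 0.71 over 18 samples, 0.78 over the 6 group means and 0.67 for deviations from the group means. Without the 3 *ΔWAPL*/*ΔSCC4* samples it was 0.45 over 15 samples. The samples share groups, sets and scaling, so these values are a description. Among 11562 genes KRT18 ranked 189th in likeness to KRT8, behind INA at 55th (r = 0.81, and 0.53 without the *ΔWAPL*/*ΔSCC4* samples). The genes most like KRT8 were CCN1 (r = 0.97), a matricellular protein gene, KIAA0040 (0.97), RNF43 (0.96), which encodes a ubiquitin ligase that limits Wnt receptors, HPSE (0.94), the heparanase gene, and STXBP2 (0.93), which encodes a syntaxin-binding protein. CCN1 was at 50.8 ± 4.30 CPM in control A, 43.8 ± 2.55 in *ΔWAPL* 3.3, 25.2 ± 2.60 in *ΔSCC4* and 124 ± 6.61 in *ΔWAPL*/*ΔSCC4*. In set B it was at 53.5 ± 2.44 CPM in control B and 26.2 ± 1.13 CPM in *ΔWAPL* 1.14. The genes most like KRT18 were CD9 (r = 0.95), a tetraspanin gene, HTRA2 (0.94), a mitochondrial protease gene, ENSG00000161326 (0.94), PGAM1 (0.93), a glycolytic enzyme gene, and SLC39A1 (0.93), a zinc transporter gene. The group means of CD9 lay between 68.0 ± 2.95 CPM in *ΔWAPL* 1.14 and 96.4 ± 9.04 CPM in *ΔWAPL*/*ΔSCC4*. No gene was among the 5 nearest to both KRT8 and KRT18.

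Of 16 other genes with a row within 250 kb of the KRT8-KRT18 pair, 6 were tested and 0 passed by edgeR in each of the 9 comparisons, with 0 or 1 of the 6 at an unadjusted p under 0.05 and 0 of 7 called by DESeq2. Their log2 fold changes over both *ΔWAPL* clones lay between -0.17 and 0.09, and in *ΔWAPL*/*ΔSCC4* against control A between -0.25 and 0.22. In *ΔSCC4* they lay between -0.29 and 0.62, in *ΔWAPL* 1.14 between -0.30 and 0.29 (lowest adjusted p = 0.0549, edgeR) and in the interaction between -0.55 and 0.40. The highest *ΔSCC4* value was that of TNS2, a tensin gene 94.1 kb away with an average under 1 log2 CPM, at 0.62 (SE 0.24, adjusted p = 0.153, edgeR). The nearest was EIF4B, a translation initiation factor gene 53.4 kb away, with -0.06 (SE 0.05) over both clones, 0.10 (SE 0.11) in *ΔSCC4* and -0.24 (SE 0.10) in *ΔWAPL*/*ΔSCC4*. SPRYD3, IGFBP6, CSAD and ZNF740, between 111 and 228 kb away, had log2 fold changes between -0.08 and 0.09 over both clones. KRT8 was thus the gene called among those tested on this stretch. All 6 tested neighbours lay on the KRT18 side of the pair. On the KRT8 side no gene within 250 kb was tested, and the nearest tested gene was ATG101, at -820 kb. Within 1000 kb 25 genes other than the pair were tested. Of these, 1 passed over both clones (17.7% of all genes), 2 in *ΔSCC4* (9.49%) and 1 in *ΔWAPL*/*ΔSCC4* against control A (7.95%), and the highest count in any comparison was 3, in *ΔWAPL* 1.14 (20.1%) and in the interaction (11.3%).

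**Figure D4:**
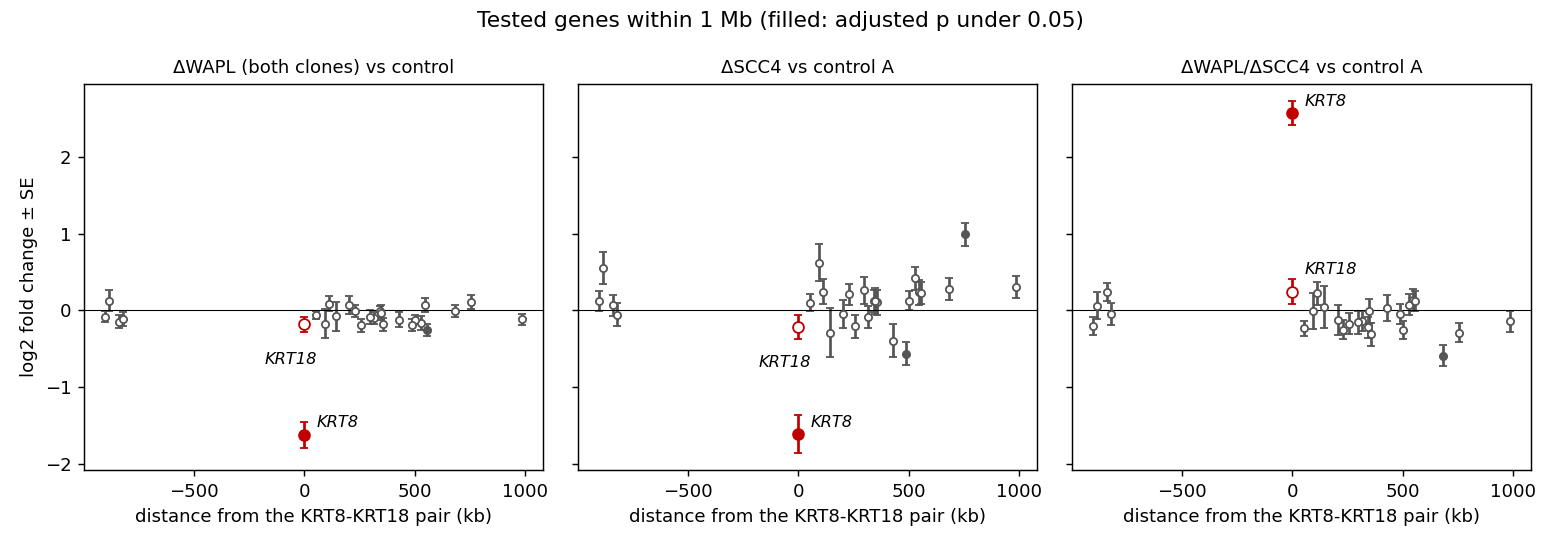
Log2 fold change ± SE (vertical axis) of the tested genes against distance in kb from the KRT8-KRT18 pair (horizontal axis), in 3 comparisons. Filled points had an adjusted p under 0.05. KRT8 lies at -1.62, -1.61 and 2.57, apart from KRT18 and the other genes around it.

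VIM (chr10:17270240-17279592, plus strand), the most abundant filament gene, was at 654, 597 and 508 CPM in control A (10044, 9684 and 8528 reads) and 249, 237 and 277 CPM in *ΔWAPL*/*ΔSCC4* (4382, 3854 and 4897 reads). In *ΔWAPL* 3.3 it was at 441, 457 and 423 CPM, and in *ΔSCC4* at 579, 551 and 504 CPM. All *ΔWAPL* 3.3 and *ΔWAPL*/*ΔSCC4* samples were below the lowest control, whereas the *ΔSCC4* samples overlapped the controls. In set B, control B was at 481, 520 and 457 CPM and *ΔWAPL* 1.14 at 360, 379 and 348 CPM, again without overlap.

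NES (chr1:156638555-156647199, minus strand), the nestin gene, had its lowest levels in *ΔWAPL* 3.3. The samples of this clone had 176, 147 and 144 CPM, against 253, 235 and 227 CPM in control A. In *ΔSCC4* it was at 310, 297 and 262 CPM, all above the controls, and in *ΔWAPL*/*ΔSCC4* at 257, 256 and 269 CPM. In set B the groups overlapped, with 205, 234 and 208 CPM in control B and 235, 236 and 233 CPM in *ΔWAPL* 1.14. Without replicate 2 of control B, NES passed the threshold in *ΔWAPL* 1.14 at 0.19 (adjusted p = 0.0231, edgeR), opposite in sign to clone 3.3.

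INA (chr10:105036895-105050103, plus strand), the alpha-internexin gene, was at 24.4, 23.9 and 23.5 CPM in control A and at 26.8, 29.6 and 21.9 CPM in *ΔWAPL* 3.3, with overlap. It was at 20.6, 19.9 and 18.4 CPM in *ΔSCC4*, all below the controls, and at 36.5, 39.3 and 39.5 CPM in *ΔWAPL*/*ΔSCC4*, all above them. In set B the *ΔWAPL* 1.14 samples, at 13.7, 14.2 and 11.8 CPM, lay below control B at 22.4, 22.4 and 18.6 CPM. INA shares an antisense overlap with NT5C2, where reads could not be assigned without the strand.

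KRT10 (chr17:38974369-38978866, minus strand), a type I keratin of differentiated epidermis, stayed between 9.96 and 13.9 CPM in all 18 samples. It passed in no comparison, with log2 fold changes between -0.33 and 0.18 in the 7 comparisons of groups, and it overlaps the antisense gene KRT10-AS1. NEFM had 2, 0 and 1 reads in control A, 6, 4 and 1 in *ΔWAPL* 3.3, 4, 1 and 11 in *ΔSCC4*, and 16, 29 and 18 in *ΔWAPL*/*ΔSCC4*. In set B it had 1, 3 and 3 reads in control B and 6, 6 and 3 in *ΔWAPL* 1.14. The *ΔWAPL*/*ΔSCC4* samples were thus the highest of the series, at 63 reads in sum. Against the 3 reads of control A the ratio of CPM was 19.7, with an exact 95% interval of 6.44 to 98.1 that covers counting error only, and against the 11 reads of *ΔWAPL* 3.3 it was 5.47 (2.86 to 11.5).

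Of 59 other intermediate filament genes, 6 were tested, and over both *ΔWAPL* clones 2 passed, both lower, where 17.7% of all genes passed in either direction. They were PRPH, the peripherin gene, with -0.97 (SE 0.19, adjusted p = 0.00233, edgeR) at an average under 1 log2 CPM, and LMNA, the lamin A/C gene, with -0.49 (SE 0.09, adjusted p = 0.00154, edgeR). In *ΔWAPL* 3.3 alone LMNA did not pass, at -0.36 (SE 0.16, adjusted p = 0.250, edgeR). In *ΔSCC4* 1 of 6 passed (9.49% of all genes did), namely PRPH with -1.39 (SE 0.28, adjusted p = 0.00937, edgeR). In the interaction 4 of 6 passed, 3 higher and 1 lower, where 11.3% of all genes did. Of 12 tested plakin and desmosome genes, whose products anchor filaments at junctions, 2 passed over both clones, both lower, a share near the 17.7% of all genes. They were JUP, which encodes plakoglobin, with -0.56 (SE 0.09, adjusted p = 0.000542, edgeR) and PPL, which encodes periplakin, with -0.46 (SE 0.09, adjusted p = 0.00293, edgeR). Neither passed in *ΔWAPL* 3.3 alone, where JUP was at -0.50 (adjusted p = 0.117, edgeR) and PPL at -0.42 (adjusted p = 0.242, edgeR). PPL also fell in *ΔSCC4*, by 0.64 on the log2 scale (SE 0.18, adjusted p = 0.0437, edgeR), and rose in *ΔWAPL*/*ΔSCC4* by 0.86 (SE 0.13, adjusted p = 0.00184, edgeR). FAM83H, which encodes a keratin-associated protein, was the other gene of this list called in *ΔSCC4*, where it rose by 0.64 (SE 0.17, adjusted p = 0.0419, edgeR). It also rose in *ΔWAPL* 1.14 by 0.41 (SE 0.10, adjusted p = 0.0305, edgeR). In *ΔWAPL* 3.3 its sign was opposite, at -0.55 (SE 0.20, adjusted p = 0.131, edgeR), and over both clones it was at -0.05 (SE 0.17). The level of PPL was 7.02 ± 0.321 CPM in control A, 5.35 ± 0.833 in *ΔWAPL* 3.3, 4.50 ± 0.669 in *ΔSCC4* and 12.8 ± 0.790 in *ΔWAPL*/*ΔSCC4*.

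Of 22 epithelial marker genes other than keratins, 11 were tested over both *ΔWAPL* clones, and 7 fell and 1 rose, where 17.7% of all genes passed in either direction. In *ΔWAPL* 3.3 alone 2 of 7 passed (EPCAM and ESRP1), both lower, where 8.07% of all genes did. In *ΔWAPL* 1.14 alone 8 of 11 passed, 7 lower and 1 higher, where 20.1% of all genes did. In *ΔSCC4* 2 of 8 passed (CDH3 and GRHL1), both lower, where 9.49% of all genes did. In *ΔWAPL*/*ΔSCC4* 6 of 9 passed against control A, all higher (7.95% of all genes passed), and 8 of 8 against *ΔWAPL* 3.3, all higher (10.6% of all genes passed). The median log2 fold change of the tested genes was -0.62 over both clones, -0.53 in *ΔSCC4* and 0.91 in *ΔWAPL*/*ΔSCC4* against control A. Genes that pass the filter through the group in which they are high enter these counts and medians. The medians are over different sets of 11, 8 and 9 tested genes. The summed level of the 22 genes was 84.5 to 95.6 CPM in control A, 65.2 to 76.7 CPM in *ΔWAPL* 3.3 and 62.1 to 72.2 CPM in *ΔSCC4*. It reached 152 to 163 CPM in *ΔWAPL*/*ΔSCC4*. In set B it was 101 to 104 CPM in control B and 68.7 to 71.2 in *ΔWAPL* 1.14. In each group 2 or 3 of the 22 genes had no read. The part of this shift in the level of KRT8 was not tested. ESRP1, which encodes an epithelial splicing regulator, fell by 0.82 on the log2 scale (SE 0.13, adjusted p = 0.000468, edgeR) over both clones and rose by 0.91 (SE 0.16, adjusted p = 0.00442, edgeR) in *ΔWAPL*/*ΔSCC4*. CDH3, the P-cadherin gene, fell by 0.86 over both clones (SE 0.14, adjusted p = 0.000475, edgeR) and by 2.04 in *ΔSCC4* (SE 0.28, adjusted p = 0.00087, edgeR). OVOL2, an epithelial transcription factor gene, rose in *ΔWAPL*/*ΔSCC4*, with 268 reads in sum against 37 in control A, a CPM ratio of 6.80 (4.81 to 9.86, exact interval for counting error). MAL2, a transport protein gene of epithelia, had 405 reads against 18, a ratio of 21.1 (13.2 to 36.0), and it was the 1 epithelial gene that rose over both *ΔWAPL* clones. SPINT2, a protease inhibitor gene, rose by 1.25 (SE 0.13, adjusted p = 0.00016, edgeR) in *ΔWAPL*/*ΔSCC4*.

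**Figure D5:**
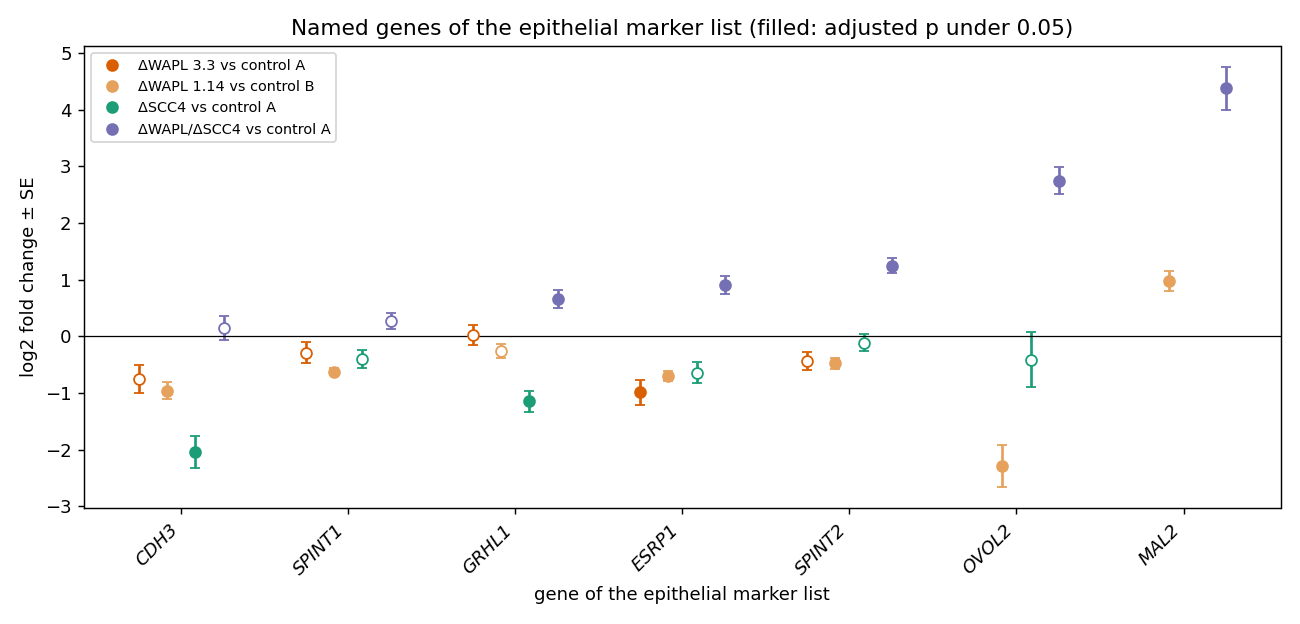
Log2 fold change ± SE (vertical axis) of 7 named genes of the epithelial marker list (horizontal axis) in 4 comparisons, with filled points where the adjusted p was under 0.05 and no point where a gene was not tested. All filled *ΔWAPL*/*ΔSCC4* points lie above 0, and all filled *ΔSCC4* points below. In control A, OVOL2 had 9 to 16 and MAL2 1 to 9 reads per sample, so their filled *ΔWAPL*/*ΔSCC4* points are no evidence beyond their reads.

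Markers of other cell types were called in both directions. Of 13 tested mesenchymal markers, 4 rose and 3 fell over both *ΔWAPL* clones, where 17.7% of all genes passed in either direction. SPARC, a secreted matrix protein gene, fell by 3.48 on the log2 scale (SE 0.24, adjusted p = 9e-08, edgeR), whereas PDGFRA, a growth factor receptor gene, rose by 1.47 (SE 0.12, adjusted p = 4.87e-07, edgeR) and TWIST1, a transcription factor gene, by 1.41 (SE 0.08, adjusted p = 7.58e-09, edgeR). In *ΔWAPL*/*ΔSCC4*, where VIM was lowest, 2 of 12 rose and 4 fell, where 7.95% of all genes passed. The summed level of the mesenchymal markers there was 243 to 260 CPM against 307 to 335 CPM in control A. The part of this in the level of VIM was not tested. Of 9 tested neural markers, 2 rose and 2 fell over both clones (17.7% of all genes passed), and in *ΔWAPL*/*ΔSCC4*, where INA and NEFM were highest, 3 of 9 passed and all were lower (7.95% of all genes passed). In *ΔSCC4*, where NES was highest, 3 of 9 rose and 1 fell (9.49% of all genes passed), with SOX1, a neural progenitor transcription factor gene, higher by 2.11 (SE 0.20, adjusted p = 9.07e-05, edgeR) and INSM1, a neuroendocrine transcription factor gene, by 2.04 (SE 0.18, adjusted p = 4.25e-05, edgeR). MAP2, a neuronal microtubule protein gene, fell in *ΔWAPL*/*ΔSCC4* by 2.73 on the log2 scale (SE 0.24, adjusted p = 3.57e-05, edgeR). The part of the neural markers in the levels of NES, INA and NEFM was not tested. Of 8 tested AP-1 genes, 1 rose and 2 fell over both clones, where 17.7% of all genes passed: FOSL2 rose by 1.47 (SE 0.21, adjusted p = 0.000134, edgeR), and JUN fell by 0.60 (SE 0.12, adjusted p = 0.00206, edgeR) and JUND by 0.36 (SE 0.08, adjusted p = 0.00466, edgeR) on the log2 scale. JUN was higher in *ΔWAPL*/*ΔSCC4*, by 0.94 (SE 0.15, adjusted p = 0.00262, edgeR), and in *ΔSCC4*, by 0.98 (SE 0.17, adjusted p = 0.00416, edgeR). The part of the AP-1 genes in the level of KRT8 was not tested.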

How the data were processed

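Polyadenylated RNA of 18 HAP1 samples was sequenced from strand-specific libraries. Per the labels, the authors aligned reads to hg19 with TopHat2 (2.0.9 in the submitters' processing notes, while the study's methods name another release) and deposited HTSeq counts per gene without normalization. The annotation release and the strand setting of the counting are not given in the sources used here. HTSeq's summary rows were left out (4.04% to 5.22% of the total on no gene and 1.47% to 1.73% ambiguous, beside alignments to several places). Promoter sequences of KRT8 and KRT18 are not reported here. Symbols and positions came from GENCODE on GRCh37, in which 96.6% of identifiers were found.

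Deposited counts were tested by edgeR 4.0.16 (R 4.3.3) with TMM scaling, filterByExpr by group, the quasi-likelihood test and Benjamini-Hochberg adjustment over all genes tested, at 0.05. Only the groups compared entered a fit. The fit over both clones had the set as covariate. SE was derived from each log2 fold change and its F statistic (size of the change divided by √F). CPM were scaled over all 18 samples, and log2 CPM has a prior count of 2. Scripts were tested on simulated data. In none of the 18 replicate pairs were all counts identical, and the pairs differed by more than sampling noise (chi-square per degree of freedom 1.61 to 52.0).

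The 10 genes and the lists were chosen with earlier results of these data known. The rule for naming genes took the 10, WAPL and MAU2, up to 3 genes per list with the largest change past the threshold in a main comparison (average log2 CPM of at least 1), the 5 genes most like KRT8 and KRT18 by r, and tested genes within 250 kb. Not all genes so taken are described in the text: SPINT1, COL1A1, ACTA2, ZEB2, PAX6 and MSI1 are left out. PRPH and EPCAM, with an average under 1 log2 CPM, and ATG101, beyond 250 kb, are named outside the rule. Same-numbered samples were checked for pairing by the correlation of their deviations from group means. For ΔSCC4 and control A the 3 correlations were 0.675, 0.115 and 0.615, all over 0.1, so the replicate block is given beside that result. In the other comparisons not every pair was over 0.1. Alternatives were DESeq2 1.42.0, DESeq2 size factors within edgeR, a filter asking 10 counts per sample, omission of the filter, 1 fit over all 18 samples, the replicate block, clone 3.3 against all 6 controls, and leaving out each sample.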

Additional observations from a re-analysis of the deposited data

Results flagged for a closer look

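1 of 8 sets of values of the 6 control samples examined had a sample far from the others. This was INA in log2 CPM, in which replicate 3 of control B, at 18.6 CPM, was below the other 5, with a gap of 0.679 of the whole range. Chance flags about 1 in 20 such groups.

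Between *ΔWAPL* clones, the change from control (3.3 minus 1.14, log2 scale) differed by 1.02 for KRT8, -0.741 for NES and 0.801 for INA. The change on loss of WAPL differed between cells without and with SCC4 by 5.31 for KRT8, -0.661 for VIM, 0.491 for NES and 0.869 for INA. These 7 of 13 tests of a difference on the filament genes passed an adjusted p of 0.05 by edgeR. Over all genes 2.65% passed for the clone difference and 11.3% for the interaction. All 3 KRT8 samples fell below their controls in both clones, so that the difference was one of size, whereas in the interaction the direction itself changed. For the NES and INA clone differences, the groups overlapped in 1 of the clones.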

How the results depend on the processing

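Of 801 recomputed fold changes of the filament genes, 745 kept their direction and side of the threshold, 25 lost the threshold, 15 gained it and 16 changed sign. The KRT8 fall in both clones and in ΔSCC4 and its rise in ΔWAPL/ΔSCC4 kept direction and call under every alternative run for these comparisons. With 1 fit over all 18 samples the number of filament genes called was 4 over both clones and 3 in ΔSCC4. In that fit 4 plakin and desmosome genes were called over both clones, where 2756 of all genes were called against 2262. Leaving out 1 sample moved the number in ΔWAPL 3.3 between 1 (without replicate 2 of ΔWAPL 3.3) and 3. Sign changed for KRT18 (0.0355) and INA (0.202) with clone 3.3 against all 6 controls, and for the VIM clone difference without a filter (-0.00794). Leaving out 1 sample turned the sign of KRT18 in ΔWAPL 3.3 (-0.236 to 0.00833, positive without control A replicate 1), KRT10 in ΔWAPL 3.3 (-0.107 to 0.0146) and in ΔSCC4 (-0.0123 to 0.0368), the VIM clone difference (values without each of 12 samples -0.0824 to 0.0856, and -0.0171 at the smallest that changed sign) and the NEFM interaction (-0.986 to 0.887, and 0.0166 at the smallest that changed sign). None of these was called. The cause was not tested. Over all genes, 1 fit over all 18 samples called 1753 against 1008 in ΔWAPL 3.3, 2556 against 1186 in ΔSCC4 and 408 against 80 between the controls, where DESeq2 called 142 and no filter 127. For the clone difference, the filter of at least 10 counts called 211 against 339. Leaving out 1 sample called 1415 to 4820 against 2536 in ΔWAPL 1.14, 662 to 2317 in ΔSCC4, 586 to 1552 against 1001 in ΔWAPL/ΔSCC4, as few as 861 against 1330 for it against ΔWAPL 3.3, 218 for the clone difference and 0 between the controls.

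With the replicate block, 4 filament genes were called in ΔSCC4 against 1, where 5754 of all genes were called against 1186. In the comparisons in which not every same-numbered pair correlated over 0.1, the block changed 2 sets of calls. It left 1 gene (NES) called for the clone difference against 3, with KRT8 at 1.02 (adjusted p = 0.0647, edgeR) and INA at 0.79 (adjusted p = 0.0945, edgeR). KRT18 was called in ΔWAPL 1.14 (-0.28, adjusted p = 0.0365, edgeR). Over all genes it called 173 against 339 for the clone difference and 162 against 80 between the controls. It left the other calls on filament genes as they were. Depth limited NEFM, KRT7 and KRT19, and KRT8 had as few as 26 reads in a sample.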
